A study of Drosophila melanogaster with 2 samples.

Results

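The 9 genes Tbh, ple, Ddc, Vmat, DAT, SerT, Tdc2, Dop1R1 and Dop2R serve the synthesis, transport and reception of dopamine, serotonin and octopamine. They were chosen by name from the 18164 annotated genes of the fly, after an earlier count over a broader list of dopamine and neuropeptide genes had found a conservative HLH3B site at only Tbh. The site at Tbh is therefore a description here and not a test. HLH3B, a basic helix-loop-helix protein of the Tal1 type, was mapped by chromatin immunoprecipitation and sequencing (ChIP-seq) in whole Drosophila melanogaster embryos aged 8 to 24 hours. All embryos came from a transgenic strain that expresses HLH3B fused to eGFP, and an antibody against GFP was used for the precipitation. The design is 1 group with 2 biological replicates of whole animals and no second genotype, treatment or stage, and the control experiment was not analysed here. The labels do not give the number of embryos pooled, the level of the fusion protein or the cells that express it. A site used in few cells and weak occupancy in many cells cannot be told apart in whole embryos.

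Monoamines are made from amino acids by short enzyme chains. In the dopamine branch, ple (tyrosine hydroxylase) makes L-DOPA and Ddc (dopa decarboxylase) turns it into dopamine, while in the octopamine branch Tdc2 makes tyramine and Tbh turns it into octopamine. Vmat loads the transmitters into vesicles, DAT and SerT take dopamine and serotonin back up from outside the cell, and receptors such as Dop1R1 and Dop2R pass the signal on. In the embryo these transmitters belong to small groups of neurons, and dopamine made by ple and Ddc also serves the hardening of the cuticle.

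Sites were read from the deposited peak lists on assembly dm6, within each gene and up to 2000 bp upstream of it. A conservative set and a larger set describe both replicates jointly, and each replicate has a set of its own. These 4 sets hold peaks with an irreproducible discovery rate (IDR) of 0.01 or lower, where a low IDR means that the rank of a peak repeats between the inputs compared. The sets hold 3846, 5814, 3992 and 3546 peaks. Each set also has a much longer ranked list of candidates, most of which missed the threshold. The scale of the authors' signal values is not stated, so signals are compared by rank within a list. With no read counts in any list, the depth of the libraries is unknown.

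The sequences below carry the comparison between the conservative sites of Tbh and the strongest candidate of ple, the start of dopamine synthesis. Each is a window of 151 bases centred on a summit, written 5′ to 3′ in the direction of the gene, from the Release 6 reference genome (dm6). Capitals mark matches to the E-box CANNTG or to a GATA motif, both searched on both strands. The GATA forms were AGATAA with its variant AGATAG, and also TGATAA with its variant TGATAG. The windows are chrX:7995207-7995357 (plus strand) and chrX:7995430-7995580 (plus strand) at Tbh, and chr3L:6719670-6719820 (minus strand) at ple.
Tbh, summit at -415 bp: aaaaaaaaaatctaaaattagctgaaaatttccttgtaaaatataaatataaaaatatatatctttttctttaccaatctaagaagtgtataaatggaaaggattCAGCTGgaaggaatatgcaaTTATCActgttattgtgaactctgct
Tbh, summit at -192 bp: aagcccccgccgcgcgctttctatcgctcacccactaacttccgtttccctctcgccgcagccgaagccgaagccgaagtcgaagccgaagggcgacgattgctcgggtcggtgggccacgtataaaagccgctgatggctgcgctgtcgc
ple, summit at -220 bp: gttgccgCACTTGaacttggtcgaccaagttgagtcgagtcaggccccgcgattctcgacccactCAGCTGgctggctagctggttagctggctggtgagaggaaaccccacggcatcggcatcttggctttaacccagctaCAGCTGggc

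The neighbouring windows of Tbh differ in composition. The one at -415 bp holds 24.5% G+C, with the E-box CAGCTG starting 30 bp downstream of the summit and the GATA match TTATCA starting 50 bp downstream of it. The one at -192 bp holds 64.2% G+C, a run of gccgaa repeats and no match to either motif. Over the 3846 windows of the conservative set, G+C was 33.7% ± 8.27 (SD over sites), an E-box occurred in 46.8%, the form CAGATG in 4.45% and a GATA match in 30.3%. Only 0.156% of these windows were as rich in G+C as the Tbh window at -192 bp, whereas 11.6% were as poor as the one at -415 bp. The ple window holds 59.6% G+C, level with or above 99.5% of conservative sites, with 3 E-boxes and no GATA match. The ple summit is a candidate and not a conservative site, however. Over the windows of the conservative candidate list, G+C was 46.6% ± 9.39 (SD over candidates), with an upper quartile of 53.6%. A GATA match occurred in 19.9% of them. These are matches of letters in a window of a set length, and E-boxes of any kind were common in all windows, with 57.4% of the windows in the conservative candidate list holding one.

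Tbh was the only gene among the 9 with a site in the conservative set. Both of its summits lay in the intergenic sequence just upstream of the gene. That is 1 of 9 genes (11.1%, exact 95% interval 0.281 to 48.3%, counting error only), beside 20.3% of all genes. Among the 4509 genes whose windows were at least as long as the shortest of the 9, 38.2% had such a site. In the larger set 2 of 9 genes had a site (22.2%, Tbh and Tdc2), beside 27.3% of all genes. In the replicate 1 set 1 of 9 had one (11.1%, Tdc2), beside 20.7%, and in the replicate 2 set 0 of 9 had one, beside 19.7%. Among the long genes the shares were 49.9% in the larger set, 39.7% in the replicate 1 set and 37.1% in the replicate 2 set. The exact intervals reach 33.6% for 0 of 9, 48.3% for 1 of 9 and 60.0% for 2 of 9. They give counting error alone. Because the genes were chosen with their values known, the intervals are no test against these shares.

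Candidates with an IDR of 0.05 or lower, a looser threshold than the authors', added 2 synthesis enzymes. In the conservative candidate list 2 of 9 genes had one (Tbh and Ddc), beside 25.5% of all genes, and in the larger list 3 of 9 did (Tbh, Ddc and Tdc2), beside 34.5%. In replicate 1 it was 4 of 9 (44.4%, Tbh, ple, Ddc and Tdc2), beside 27.7% of all genes. The exact 95% interval of that share is 13.7 to 78.8% (counting error only). In replicate 2 it was 0 of 9, beside 22.9%. Among the 9, every gene past the looser threshold in any list was thus an enzyme of synthesis. The 3 transporter genes and both receptor genes had none in any of the 4 lists. This split did not hold among the further pathway genes described below. There, receptor genes such as DopEcR and Octbeta2R had such candidates, while some enzyme genes had none in any list. The genes closest to the authors' threshold of 0.01 were Tdc2 inside it, at 0.00800 in the larger list, and ple outside it, at 0.0123 in replicate 1.

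**Figure D1:**
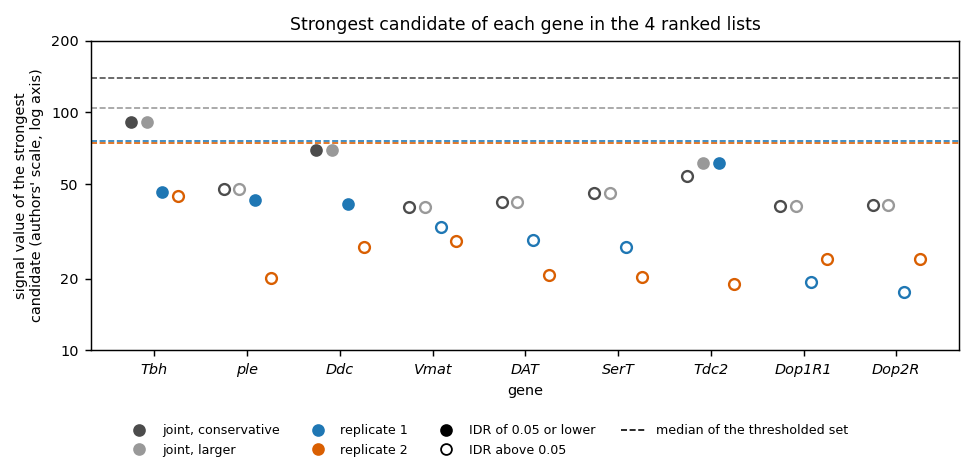
Signal value (authors' scale, log axis) of the strongest candidate of each of the 9 genes in the 4 ranked lists. Filled points have an IDR of 0.05 or lower and open points a higher one, and dashed lines mark the median signal of the thresholded set in the matching colour. No gene reaches the median of a set in the matching list, and no replicate 2 point is filled.

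Tbh (FBgn0010329) lies on X from 7995697 to 8027394 on the plus strand. Its stronger site, 7995114 to 7995449, had its summit at -415 bp from the gene start, a signal of 91.1 in both joint lists, and ranked 3115 of 3846 in the conservative set and 3491 of 5814 in the larger set. Its IDR was 0.00294 in the conservative list and 0.000856 in the larger list. Both joint lists thus placed the site inside the threshold, but in the lower part of the conservative set, whose median signal was 139.

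The replicates placed the same stretch differently. Replicate 2 had a candidate with its summit at the identical base, a signal of 44.6 and rank 3425 of 86045, but with an IDR of 0.794. Among the 1000 replicate 2 candidates ranked 3001 to 4000, the median IDR was 0.00751, 79.4% had an IDR of 0.05 or lower, and 3.5% had one as high as that at Tbh. Replicate 1 had its summit at -313 bp, with a signal of 46.2, rank 4411 of 93496 and an IDR of 0.0281. Among replicate 1 candidates ranked 4001 to 5000 the median IDR was 0.0187, so the value at Tbh was ordinary for its rank. Neither replicate's own set held a Tbh site, and the nearest peaks of those sets were more than 20 kb away. Of all conservative sites, 401 (10.4%) overlapped no peak of either replicate set, with a median signal of 79.5, and 63.2% overlapped peaks of both. Within 100 bp, 93.7% of conservative sites had a candidate summit in both replicates. Only 1.66% had one in replicate 2 alone, as the site at -415 bp did, with its replicate 1 summit 102 bp away.

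The weaker Tbh site, 7995337 to 7995672, had its summit at -192 bp, a signal of 20.02 and rank 3759 of 3846. Its IDR was 0.00293 in the conservative list and 0.746 in the larger list, so the larger set did not hold it. Its interval overlaps that of the stronger site, and the replicate 1 candidate at -313 bp spans both summits, 102 bp from the one and 121 bp from the other. No replicate 2 summit lay closer than 223 bp. Such a site is of a rare kind in the set. Only 89 conservative sites (2.31%) had a signal below the median of all candidates, and 85 of these 89 overlapped a stronger site, as this one does. Leaving it out, Tbh rests on the stretch around -415 bp, and beyond that no candidate in any of the 4 lists within the 33.7 kb window had an IDR below 0.2.

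**Figure D2:**
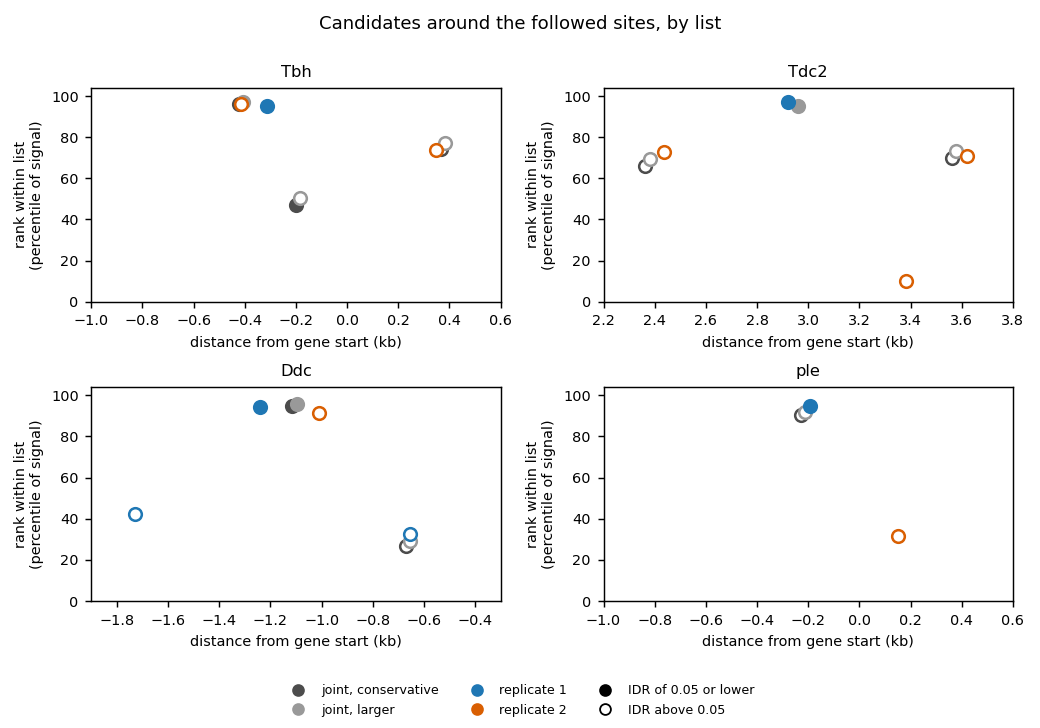
Percentile of signal within each list (100 is the strongest) against distance from the gene start in kb for candidates around the sites of Tbh, Tdc2, Ddc and ple. Colours give the list, filled points have an IDR of 0.05 or lower, and joint lists are drawn slightly apart to the left and right. At Tbh all 4 lists hold a candidate above the 95th percentile, which in replicate 2 is open, while at Tdc2 and ple the strong candidate of replicate 1 has no such partner in replicate 2.

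The genes most like Tbh in the percentile of their strongest candidate across the 4 ranked lists were CG5921, lncRNA:CR45327 and wrapper, out of 12246 genes with a candidate in every list. Tbh stood at percentiles of 96.2, 97.1, 95.3 and 96.0 in the conservative, larger, replicate 1 and replicate 2 lists. CG5921 stood at 96.1, 97.0, 95.3 and 96.1, at a Euclidean distance of 0.168. The genes lncRNA:CR45327 and wrapper had the same values as each other, at a distance of 0.213. Each of these 3 genes had 1 site in the conservative set. Equal values in all 4 lists can come from peaks shared by overlapping windows, so lncRNA:CR45327 and wrapper may hold the same site.

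Tdc2 (FBgn0050446), the tyrosine decarboxylase that supplies Tbh with tyramine, had a firm peak in replicate 1 alone. The gene lies on 2R from 6684745 to 6689974 on the minus strand. In replicate 1 the summit lay in an intron at 2922 bp from the gene start, with a signal of 61.5, rank 2672 of 3992 in the replicate set and an IDR of 0.00202. The larger set held it at 2951 bp, from 6686855 to 6687190, with a signal of 61.2, rank 5252 of 5814 and an IDR of 0.00800. The annotation places this intron within the gene Rpp25 as well. In replicate 2 the nearest candidate lay 432 bp away, with a signal of 5.09, rank 77374 of 86045 and an IDR of 0.732. The nearest candidate of the conservative list lay 579 bp away. In the larger set 20.1% of sites overlapped a peak of the replicate 1 set only, as this one did. A further Tdc2 candidate, in a coding exon at 1749 bp, was seen in all 4 lists within 41 bp, with IDRs of 0.132 and 0.0582 in the joint lists, 0.205 in replicate 1 and 0.505 in replicate 2.

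Ddc (FBgn0000422), which makes dopamine and serotonin, had a candidate upstream that missed the authors' threshold in every list. The gene lies on 2L from 19116483 to 19120306 on the minus strand. The candidate, at -1105 bp (19121243 to 19121578), lies in the 3′ UTR of the neighbouring gene Phb1, although the start of Ddc is the nearest start. Its signal of 69.7 ranked 4795 of 90471 in the conservative list with an IDR of 0.0139, and 5127 of 123541 in the larger list with an IDR of 0.0241. In replicate 1 the nearest summit lay at -1240 bp, with a signal of 41.2, rank 5416 and an IDR of 0.0271. In replicate 2 it lay at -1012 bp, with a signal of 27.2, rank 7384 and an IDR of 0.432. Both replicates thus ranked a candidate there above their 91st percentile, but their summits were further apart than the 100 bp taken as the same site. The window of the joint candidate held 40.4% G+C and 1 E-box.

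For ple (FBgn0005626), the enzyme of the rate-limiting step to dopamine, a candidate just upstream passed the looser threshold of 0.05 in replicate 1 alone, and no list called it at 0.01. The gene lies on 3L from 6713356 to 6719525 on the minus strand. In replicate 1 an intergenic candidate at -193 bp had a signal of 42.7, rank 5083 and an IDR of 0.0123. The joint lists held a candidate at -220 bp with a signal of 47.9, whose IDR was 0.778 in the conservative and 0.740 in the larger list. In replicate 2 the nearest candidate lay 372 bp away, with a signal of 10.04 and an IDR of 0.776. The strongest replicate 2 candidate of ple was elsewhere, in an intron at 2379 bp, with a signal of 20.1 and an IDR of 0.607. Of the 9 replicate 1 candidates and 4 replicate 2 candidates of ple, 0 lay within 100 bp of each other.

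Of the transporters, Vmat (FBgn0260964), which fills synaptic vesicles, had 24 candidates in replicate 1 and 11 in replicate 2, all with an IDR above 0.18. Its strongest joint candidate, in a coding exon at 14060 bp, had a signal of 40.0, an IDR of 0.525 in the conservative list and 0.171 in the larger list, and lay nearer to the start of CG13331. The strongest replicate candidates were at other places, at 2187 bp in replicate 1 (signal 32.9, IDR 0.189) and at 10438 bp in replicate 2 (signal 28.8, IDR 0.200), the latter nearer to the start of CG13332. The joint lists held weaker candidates near both, at 2.185 kb (signal 37.7) and 10.45 kb (signal 30.6). Their IDRs in the conservative and larger lists were 0.756 and 0.132 at 2.185 kb, and 0.619 and 0.449 at 10.45 kb. The value of 0.132 was the lowest of the gene in any list. No position of the gene was thus the strongest in both replicates.

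DAT (FBgn0034136), the dopamine transporter, had 2 candidates in replicate 1 and 7 in replicate 2. The strongest joint candidate, at -551 bp, had a signal of 41.8 and IDRs of 0.502 and 0.0873 in the conservative and larger lists. It lay closer to the start of CG4945, at -234 bp from that start. Replicate 1 had a summit 13 bp away (signal 29.0, IDR 0.684) and replicate 2 had one 89 bp away (signal 14.2, IDR 0.913). These summits, at -564 and -462 bp, lie on either side of the joint one. They are further apart than the 100 bp taken as the same site. The strongest replicate 2 candidate lay in the 3′ UTR at 6187 bp, nearest to the start of Syn2, with a signal of 20.8 and an IDR of 0.913.

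SerT (FBgn0010414), the serotonin transporter, had 9 candidates in each replicate. The strongest joint candidate, at -908 bp, had a signal of 45.8 and IDRs of 0.346 and 0.0994. It lay in a coding exon within the spans of CG45069 and PIG-Z, 112 bp downstream of the start of CG45069. Its window was the only one examined at the 9 genes that held CAGATG. That form occurred in 4.45% of conservative sites and in 7.73% of the windows of the conservative candidate list. The SerT summit is a candidate and not a conservative site. Replicate 1 had a summit 100 bp away with a signal of 27.1 and an IDR of 0.164, and replicate 2 had one 12 bp away with a signal of 15.4 and an IDR of 0.913. Those replicate summits, at -808 and -920 bp, lie on either side of the joint one and further apart than the 100 bp taken as the same site.

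Both dopamine receptor genes are long and held only weak candidates. In Dop1R1 (FBgn0011582), a receptor of the D1 type, the strongest joint candidate lay in an intron at 21286 bp, with a signal of 40.3 and IDRs of 0.300 and 0.707. Replicate 1 had a summit 1 bp away, with a signal of 19.4 and an IDR of 0.861, and replicate 2 had one 22 bp away, with a signal of 21.7 and an IDR of 0.792. All 5 replicate 1 candidates of this gene lay between 20.7 and 23.0 kb from the start, and all 4 candidates of the conservative list between 20.7 and 22.8 kb. Replicate 2 had 36 candidates, the strongest in an intron at 2876 bp with a signal of 24.2 and an IDR of 0.697.

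In Dop2R (FBgn0053517), a receptor of the D2 type, the strongest joint candidate lay in an intron at 38732 bp, with a signal of 40.9 and IDRs of 0.484 and 0.723. The nearest start was that of tRNA:Pro-CGG-1-1. Replicate 1 had a summit 16 bp away with a signal of 17.6 and an IDR of 0.719, and replicate 2 had one at the same base with a signal of 24.3 and an IDR of 0.830. The lowest IDR of the gene in replicate 2 was 0.173, at 55699 bp in the 3′ UTR, where the nearest start was that of lky. In both receptor genes a summit thus repeated within 22 bp between replicates without coming near the threshold.

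**Figure D3:**
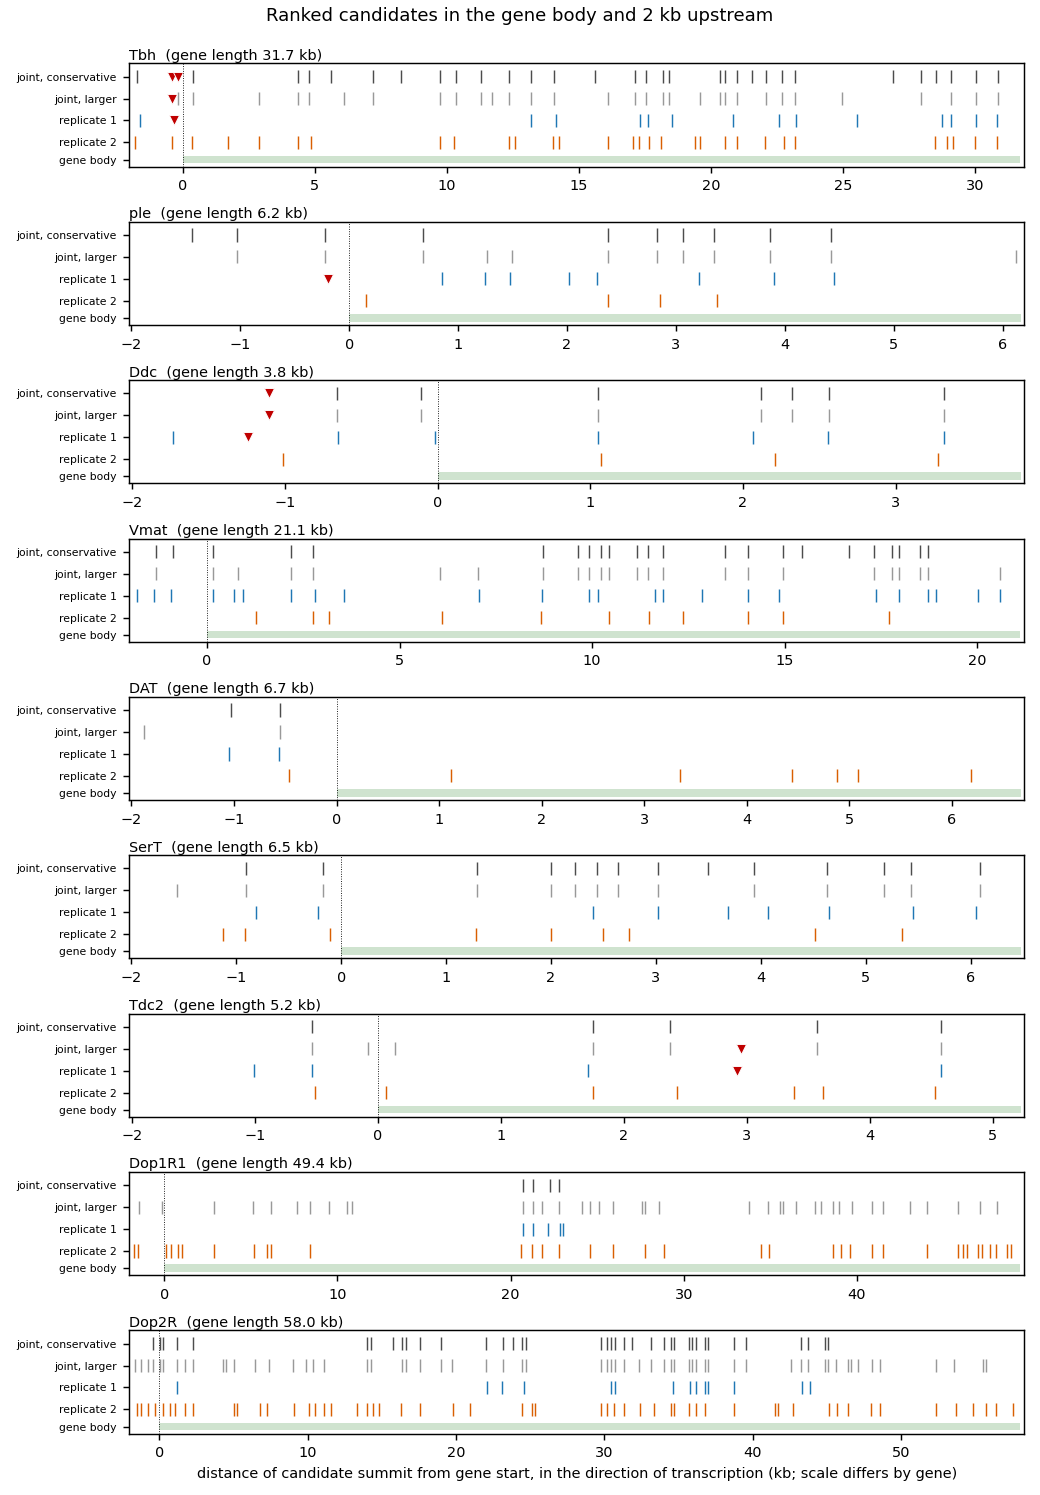
Positions of all ranked candidates along the 9 genes, in kb from the gene start in the direction of transcription, with 1 row per list and the gene body in green (the scale differs by gene). Red triangles mark candidates with an IDR of 0.05 or lower and ticks mark the others. Triangles occur at Tbh, ple, Ddc and Tdc2, and none stands in a replicate 2 row.

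The nearest conservative sites outside the windows had their nearest start at another gene in all 9 cases. The gap from the window was 3.50 kb at Vmat, to a site with its summit at -82 bp from the start of Nadk1a and a signal of 56.7. It was 4.17 kb at ple, to a site of signal 231 whose nearest start was that of CG8519. At the other 7 genes the gap ranged from 11.0 kb at Tdc2 to 109 kb at Dop2R, with 17.6 kb at Tbh and 39.7 kb at Dop1R1.

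The candidates of the 9 genes were also followed from replicate to replicate. Within 100 bp, 24 of 91 replicate 1 candidates (26.4%) had a replicate 2 summit, beside 28.1% on all arms. The order of these shares turned at 200 bp, with 46.2% beside 39.3%, and with any overlap of the intervals, with 53.8% beside 45.8%. From the other side, 24 of 163 replicate 2 candidates (14.7%) had a replicate 1 summit, beside 31.2% on all arms, and with any overlap 31.3% did, beside 48.9%. The replicates also covered the 9 genes unequally, with 0.440 candidates per kb in replicate 1 and 0.789 in replicate 2, against 0.697 and 0.630 per kb over all arms. A low number of candidates in 1 replicate lowers the chance of a partner, and its part in these shares was not tested.

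The imbalance lay in certain genes. Dop1R1 had 5 candidates in replicate 1 and 36 in replicate 2, Dop2R had 14 and 55, Tbh had 15 and 30, DAT had 2 and 7, and Tdc2 had 5 and 7. The order was the opposite at ple with 9 and 4, Ddc with 8 and 4, and Vmat with 24 and 11. Candidates were thus more numerous in replicate 2 at 5 of the 9 genes, beside 23.7% of the 4509 genes with windows of at least 5.82 kb. The difference per kb, replicate 2 minus replicate 1, was 0.60 at Dop1R1 and 0.68 at Dop2R, above 92.6% and 94.3% of those genes. Tbh, with a difference of 0.45 per kb, was above 88.7% of them. All these counts rest on 1 library a side, so a difference between the replicates has no error of its own.

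**Figure D4:**
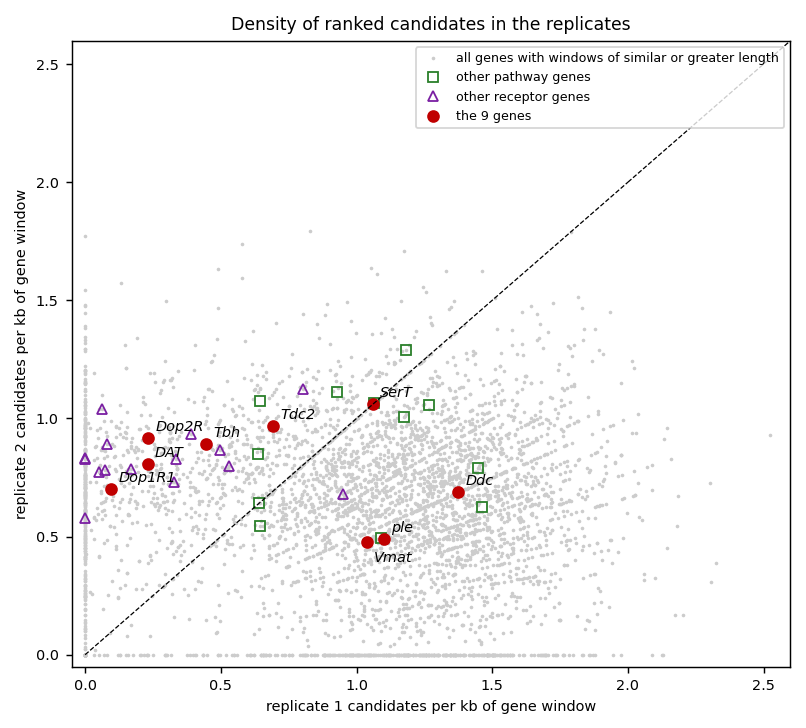
Candidates per kb of gene window in replicate 2 against replicate 1, with the 9 genes in red, the other listed monoamine pathway genes as open symbols (receptor genes as triangles) and all genes with windows of at least 5.82 kb in grey. The dashed line marks equal density. Dop1R1, Dop2R, DAT, Tbh and Tdc2 lie above it, and ple, Ddc and Vmat below it.

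Among 27 further genes of the monoamine pathways, 2 had a site in the conservative set (7.41%, beside 20.3% of all genes). DopEcR, a receptor for dopamine and ecdysteroids, had 2 intronic sites. The one at 1352 bp had a signal of 98.2, an IDR of 0.00224 in the conservative list, 0.00578 in replicate 1 (signal 47.6) and 0.0478 in replicate 2 (signal 50.2). The one at 4236 bp, nearest to the start of lncRNA:CR44360, had a signal of 92.0 and an IDR of 0.000751 in replicate 2 (signal 54.4). Replicate 1 had no candidate with an IDR of 0.05 or lower there, its only one in DopEcR being at the other site. The arylalkylamine acetyltransferase gene speck had an intronic site at 1553 bp, with a signal of 73.3, an IDR of 0.00725 in the conservative list and 0.0175 in replicate 2 at the identical summit. The peaks of speck in the replicate 1 set lay elsewhere in its introns, at 6381 bp (IDR 0.00356) and 5818 bp (IDR 0.00790). From another start of speck they lay at -979 and -1542 bp. The larger candidate list had summits near them, at 6355 bp (IDR 0.0431) and 5893 bp (IDR 0.0316). The larger set held a further site at 2672 bp.

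In the larger set 5 of the 27 genes had a site (18.5%, beside 27.3% of all genes), with Pu, Octbeta2R and Hdc beside those 2. Pu, the GTP cyclohydrolase that starts the synthesis of a cofactor of tyrosine hydroxylase, had its site at 3534 bp, with a signal of 77.3. The nearest start was that of CG4286, with the summit at -213 bp from it. The summit also lay at -269 bp from another start of Pu itself. The IDR of the site was 0.00219 in the larger list. In replicate 1 it was 0.0148, at 3543 bp with a signal of 45.6. Octbeta2R, an octopamine receptor, had an intronic site at 3761 bp that rested on replicate 2 (signal 60.5, IDR 0.000456), and Hdc, which makes histamine, had one in its 5′ UTR at 217 bp that rested on replicate 1 (signal 54.4, IDR 0.00419). The start nearest to the Hdc summit was that of lncRNA:CR45265, at -60 bp from that start.

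At an IDR of 0.05, replicate 1 had candidates at 5 of the 27 genes (18.5%, beside 27.7% of all genes), of which Octbeta1R at 6582 bp had an IDR of 0.0168. A weaker candidate of Octbeta1R, in the 3′ UTR at 18160 bp, had an IDR of 0.0150 and a percentile of signal of 73.3. Replicate 2 had candidates past this threshold at 7 of 27 (25.9%, beside 22.9% of all genes), where 0 of the 9 genes had one. Those not yet named were at Catsup, a regulator of tyrosine hydroxylase (IDR 0.0169), and at the receptor genes 5-HT1A (0.0389), 5-HT7 (lowest 0.0423) and Octbeta3R (0.0210). They differed in strength, with percentiles of signal of 90.2 at Catsup, 94.35 at 5-HT1A and 71.3 at Octbeta3R. The 5-HT7 candidates stood at 93.2, 55.8 and 18.7, with the lowest IDR at 55.8. Past this threshold were 5 of the 27 genes (18.5%) in the conservative candidate list, beside 25.5% of all genes, and 11 (40.7%) in the larger list, beside 34.5%.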

How the data were processed

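The authors deposited peak lists on dm6, per the labels. No aligner or peak caller is named in the sources used here. Each deposited score equals a rescaled IDR, and the deposited −log10 IDR was turned back into an IDR. The deposited signal values, also a score with no stated scale, served for ranks within a list only. Depth is unknown. Further columns of the joint lists, 16 in all, hold values of the compared inputs that no label ties to a sample and were not used. The joint candidate list of each set was the one that holds its peaks with the same scores.

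Genes came from Ensembl release 115 (BDGP6.54) without transposable elements on 6 arms, and sequences from RefSeq Release 6. A site belonged to a gene when its summit lay in the gene or up to 2000 bp upstream, and summits within 100 bp counted as the same site. All 9 genes and all 27 further genes were matched by symbol. The genes, lists and measures were chosen with earlier results of these data known. The text names the 9 genes, pathway genes with a conservative site or a replicate candidate at an IDR of 0.05 or lower, genes with nearer starts, and the 3 genes most like Tbh. The pathway genes added by the larger set fall under the same rule through a replicate list.

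No statistical test was run on the data, because there is 1 group and the genes were chosen with their values known. The labels number the replicates 1 and 2 and call them biological. The counting of summits in windows was checked on made-up peaks with known answers. Alternatives changed the list, the replicate, the threshold, the window, the assignment to genes and the distance between summits. The work was done in Python 3.11.15 with pandas 2.3.3, numpy 2.4.6, matplotlib 3.10.9 and scipy 1.17.1.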

Additional observations from a re-analysis of the deposited data

How the results depend on the processing

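The count of 1 gene among the 9 with a conservative site was 2 in the larger set and 2 with conservative candidates at an IDR of 0.05, while the share of all genes went from 20.3% to 27.3% and 25.5%. It was 0 among sites at or above the median signal (12.7% of all genes) and 0 for the gene body alone (8.61% of all genes), since both Tbh sites lie upstream. A replicate on its own gave 0 to 1, and the 1 gene was Tdc2, not Tbh. The other window and assignment settings gave 1, Tbh each time. The count of 2 among the 27 pathway genes was 5 in the larger set, 5 at an IDR of 0.05 and 0 among sites at or above the median signal, and 2 to 3 in a replicate on its own. The 4 candidates past an IDR of 0.05 in the replicate lists fell to 1 at 0.01, with a range of 0 to 4 over the replicates on their own. The 24 replicate 1 candidates found again in replicate 2 became 16 at 50 bp (17.6% beside 18.4% on all arms), 42 at 200 bp (46.2% beside 39.3%) and 49 with any overlap of the intervals (53.8% beside 45.8%). The 2 motif matches at the Tbh sites became 1 with 50 bp and 4 with 100 bp on each side of the summit, an alternative chosen after seeing the data. No paired analysis was possible because there is 1 group and no test. With 2 replicates no spread can be given for any site, and depth is unknown.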

Other observations

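Receptor genes of the monoamines were sparsely covered by candidates in replicate 1 and not in replicate 2. The 17 receptor genes among the 9 and the 27 genes, a grouping made after the values were seen, held 134 candidates in replicate 1 and 496 in replicate 2, or 0.222 and 0.821 per kb. Candidates were more numerous in replicate 2 at 16 of the 17, DopEcR being the exception with 14 and 10. Oamb, Octbeta3R and 5-HT2A had 0 candidates in replicate 1, beside 23, 32 and 13 in replicate 2. The other 19 genes had 0.856 and 0.781 candidates per kb. Among all 1964 genes with windows of at least 12.3 kb, the length of the shortest receptor window, the values were 0.707 and 0.634 per kb, and 33.4% had more in replicate 2.

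Only 1 of the 17 receptor genes (5.88%) had a conservative site and 2 (11.8%) had one in the larger set, beside 48.8% and 60.4% of those 1964 genes. Of the other 19 pathway genes, whose windows are mostly shorter, 10.5% and 26.3% had one. Fewer candidates in a replicate leave fewer to pass the threshold, and the part of the replicate 1 coverage in these counts was not tested.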
